A study of Mus musculus with 12 samples.

Results

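The mitochondrial disulfide relay was examined at the level of its mRNAs in mouse kidney. The genes were Gfer, which encodes the augmenter of liver regeneration (ALR), its partner Chchd4, the anchor of that partner, Aifm1, and 7 genes for small cysteine-rich proteins of the intermembrane space: Timm9, Timm10, Timm8b, Timm13, Cox17, Cox19 and Chchd10. They were chosen by name for their place in this pathway and are 10 of the 55487 gene identifiers in the count table, of which 29160 had a count in at least 1 library. All 10 had enough counts to be tested in every comparison.

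The study asked how loss of ALR in the proximal tubule changes ischemia/reperfusion (I/R) injury, and sequenced RNA from 12 samples labelled kidney cortex, 3 in each of 4 groups. Ctrl (genotype labelled WT, treatment Sham) and Ctrl+I/R mice (WT, Ischemia/reperfusion) carried both floxed copies of Gfer without Cre, according to the study's methods, and PT-KO (ALR knockdown, Sham) and PT-KO+I/R mice (ALR knockdown, Ischemia/reperfusion) carried the same floxed alleles with a Ggt1-Cre transgene. Ggt1-Cre is active in proximal tubule cells, so cells of the cortex without the Cre keep an intact gene. Injury was 22 min of bilateral ischemia followed by 24 h of reperfusion in mice of 6 to 8 weeks, kept on a mixed C57BL/6 background. The groups are called controls, knockouts, injured controls and injured knockouts below, and libraries are named by group and by the number in the count table. Since the labels do not say that each comes from a separate mouse, p-values measure only the spread between these libraries. Because 3 are set against 3, the smallest two-sided p that an exact permutation test can give is 0.1.

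Proteins of the intermembrane space are imported unfolded and are trapped there when disulfide bonds form in them. The oxidoreductase CHCHD4 (Mia40 in yeast) forms these bonds, AIFM1 holds it at the inner membrane, and ALR, a flavin-linked sulfhydryl oxidase, takes the electrons from CHCHD4 and passes them to cytochrome c. The clients include the small TIM chaperones, which carry membrane proteins across the intermembrane space, and the twin-cysteine proteins that deliver copper to cytochrome c oxidase. The proximal tubule, where most reabsorption takes place, is rich in mitochondria.

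Gfer lies on the minus strand of chromosome 17, at chr17:24693187-24696156 (GRCm38, the assembly of mm10), and its longest coding transcript, of 1776 bases, has 3 exons. The loxP sites flank exon 2 (chr17:24695254-24695450), which has 197 bases, all coding, and makes up 11.1% of the transcript. The exon is shown because it is what the Cre removes and because the study's mouse qRT-PCR assay for ALR lies wholly inside it. Capitals mark the sites of the forward and reverse primers, which bound an amplicon of 41 bases.
Gfer exon 2: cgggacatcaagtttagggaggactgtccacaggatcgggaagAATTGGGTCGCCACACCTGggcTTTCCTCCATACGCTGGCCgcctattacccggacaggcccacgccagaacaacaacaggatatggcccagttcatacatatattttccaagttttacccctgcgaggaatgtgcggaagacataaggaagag
The same exon holds 1 in-frame pair of cysteine codons with 2 codons between them (chr17:24695274-24695285, minus strand), the arrangement of the redox-active cysteines of ALR, with the cysteine codons in capitals.
Gfer cysteine codon pair: TGCgaggaaTGT

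These features bear on what a gene count can show. A transcript that lost only exon 2 would keep the other exons, and its expected count over the gene would be lower by no more than 0.17 on the log2 scale (the value for loss in every cell is -0.17), so the total for Gfer does not check the deletion. Exon 2 is not a multiple of 3 bases long (the remainder is 2), and whether the altered transcript was degraded was not tested. In addition, 573 bases of exon 3, or 32.3% of the transcript, match the opposite strand of a transcript of Dst, a cytoskeletal linker gene, at 99.8% identity. Dst had a mean of 7281 counts a library, and how reads that match both genes were counted is not given in the sources used here.

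**Figure D1:**
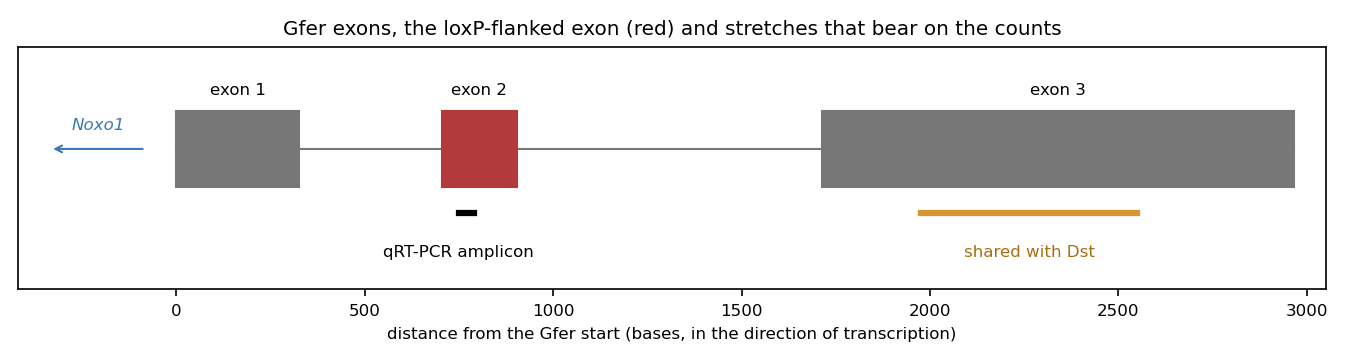
Map of Gfer drawn to scale, with the distance from its start in bases on the x axis, exons as boxes and the loxP-flanked exon 2 in red. The black bar is the 41-base qRT-PCR amplicon inside exon 2, the orange bar is the stretch of 573 bases of exon 3 shared with Dst, and the blue arrow is the start of Noxo1, which is read in the other direction.

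Library totals ran from 12165089 to 23123693 counts. Xist, which is transcribed from the inactive X of females, had 22402 and 19755 counts in control libraries 1 and 2, where 4 Y-linked genes had 0. The remaining 10 libraries had at most 11 Xist counts and at least 3109 Y-linked ones. In comparisons with controls, sex and group can therefore be told apart only through control library 3, and fitted values against that library alone are given beside several of the differences from controls. The summed level of 10 proximal tubule markers was 14064 to 16007 CPM (counts scaled to a common library size) in controls, 14620 to 16778 in knockouts, 4213 to 9730 in injured controls and 2869 to 3460 in injured knockouts, and no marker was at 0 in every library. Fewer cells of a type and less RNA per cell cannot be told apart in these bulk samples. The injury marker Havcr1 (kidney injury molecule 1) was at 1.104 to 4.59 CPM without I/R, at 786, 2107 and 381 CPM in injured control libraries 1, 2 and 4, and at 2262, 3932 and 3229 CPM in injured knockout libraries 2, 3 and 4. It is 1 of 4 listed markers of injured tubule. These summed to 567 to 2652 CPM in injured controls and 4809 to 6324 CPM in injured knockouts. After I/R all 4 were called higher in each genotype (edgeR, adjusted p under 0.05). Between injured knockouts and injured controls, 3 were called higher and 1 lower.

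Gfer, the targeted gene, was read in all 12 libraries (158 to 512 counts). Its level was 12.7, 11.4 and 14.4 CPM in control libraries 1, 2 and 3, and 9.97, 17.1 and 15.03 CPM in knockout libraries 1, 2 and 4. The knockout libraries spread on both sides of the control libraries, and the groups overlapped. The level was 15.3, 20.0003 and 17.6 CPM in injured control libraries 1, 2 and 4, and 21.6, 22.8 and 21.6 CPM in injured knockout libraries 2, 3 and 4. Every library after I/R lay above the control libraries, and the injured knockout libraries lay above all others.

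In edgeR's quasi-likelihood test with Benjamini-Hochberg adjustment over all tested genes, Gfer rose after I/R in knockout kidneys, by 0.64 ± 0.18 (log2, SE; 95% interval 0.25 to 1.03, adjusted p = 0.00888), or 1.56-fold. In control kidneys the difference after I/R was 0.46 ± 0.15 (0.12 to 0.80, adjusted p = 0.0637). This value passed the threshold when libraries were scaled by their total counts (0.59, adjusted p = 0.0337, beside 0.0337 to 0.471 over the 15 alternatives). Against control library 3 alone it was 0.31 (adjusted p = 0.461), and all 3 injured control libraries lay above that library. The knockout itself gave no called difference without I/R (0.13 ± 0.20, -0.33 to 0.58, adjusted p = 0.761), and the value was -0.04 (adjusted p = 0.992) against control library 3 alone and -0.03 without knockout library 2. After I/R, injured knockouts stood 0.32 ± 0.13 above injured controls (0.02 to 0.61, adjusted p = 0.0723), which passed the threshold without injured control library 2 (0.40, adjusted p = 0.0401) and with GC content and length modelled as an offset (0.40, adjusted p = 0.0363, beside 0.0363 to 0.581 over the 14 alternatives). No loss of total Gfer mRNA was detectable in the knockout libraries. The study itself reports less ALR in the kidneys of PT-KO mice than in those of controls, from measurements other than these counts. The interval without I/R, whose lower bound is -0.33, still allows more than the -0.17 that loss of exon 2 alone would give.

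Noxo1, an organizer subunit of the NADPH oxidase NOX1, starts next to Gfer and is read in the opposite direction. The 77 bases between both starts (chr17:24696157-24696233, written on the minus strand as for Gfer) are shown because both genes start at their edges.
Between Gfer and Noxo1: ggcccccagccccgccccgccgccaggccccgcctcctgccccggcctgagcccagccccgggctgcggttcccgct
Noxo1 was read at 2.06, 2.08 and 2.05 CPM in controls, 1.89, 1.35 and 0.798 CPM in knockouts, 2.41, 1.25 and 1.71 CPM in injured controls, and 0.856, 0.979 and 0.838 CPM in injured knockouts. It was lower in injured knockouts than in injured controls with a log2 difference of -1.01 ± 0.35 (adjusted p = 0.0472 in edgeR's test), with 10 to 22 counts a library in the first group, and the groups did not overlap. The call held in 5 of 14 alternatives (adjusted p 0.0228 to 0.413). It was lost in DESeq2 (adjusted p = 0.0755), without a low-count filter (0.0892), with the GC and length offset (0.0648) and without injured control library 1 (-0.73) or 4, or any injured knockout library (adjusted p 0.0270 to 0.179 over the 6 fits that left out a library). In the same comparison Gfer had the log2 difference of 0.32 given above.

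Chchd4, the oxidoreductase that ALR serves, had no called difference in edgeR's test. Its level was 38.2, 36.6 and 42.3 CPM in controls, 39.2, 43.1 and 40.6 CPM in knockouts, 39.5, 45.0 and 38.1 CPM in injured controls, and 46.2, 44.8 and 40.6 CPM in injured knockouts. The groups overlapped in every comparison. The fitted differences were between 0.07 and 0.10 (log2) in the 4 comparisons, and their 95% intervals lay between -0.18 (injured controls against controls) and 0.33 (injured knockouts against injured controls). With GC content and length modelled as an offset, Chchd4 was called higher in injured knockouts, by 0.23 (adjusted p = 0.0368) against knockouts and by 0.29 (adjusted p = 0.0458) against injured controls. Against control library 3 alone its differences were -0.03 in injured controls and -0.05 in knockouts.

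Aifm1 is encoded on the X chromosome, and its product is a flavoprotein of the inner membrane that binds CHCHD4. It was read at 165, 159 and 176 CPM in controls, 168, 187 and 183 CPM in knockouts, 127, 113 and 140 CPM in injured controls, and 86.4, 99.4 and 81.9 CPM in injured knockouts. The levels fell into an order in which injured knockouts were lowest, injured controls next and both groups without I/R highest, and only the groups without I/R overlapped. After I/R in knockout kidneys Aifm1 fell by 1.01 ± 0.10 (log2, adjusted p = 1.01e-05), which left 0.496 of the knockout level, and the call held in all 14 alternatives. In control kidneys the difference was -0.39 ± 0.12 (adjusted p = 0.0582), and it was called in 4 of 15 alternatives (adjusted p 0.0155 to 0.299 over the 15). Against control library 3 alone it was -0.46 (adjusted p = 0.299), and all 3 injured control libraries lay below all 3 control libraries. After I/R, Aifm1 was lower in injured knockouts than in injured controls with a log2 difference of -0.51 ± 0.12 (adjusted p = 0.0115), a call lost without injured knockout library 4 (-0.44, adjusted p = 0.0599) and with GC content and length modelled as an offset (-0.31, adjusted p = 0.0618, beside 0.00215 to 0.131 over the 14 alternatives). The 6 libraries after I/R also differed in Havcr1, and injured control library 2, with the highest Havcr1 of its group, had the lowest Aifm1 of that group. Among the injured knockouts, library 3 had both the highest Havcr1 and the highest Aifm1. The part of injury in the difference was not tested.

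**Figure D2:**
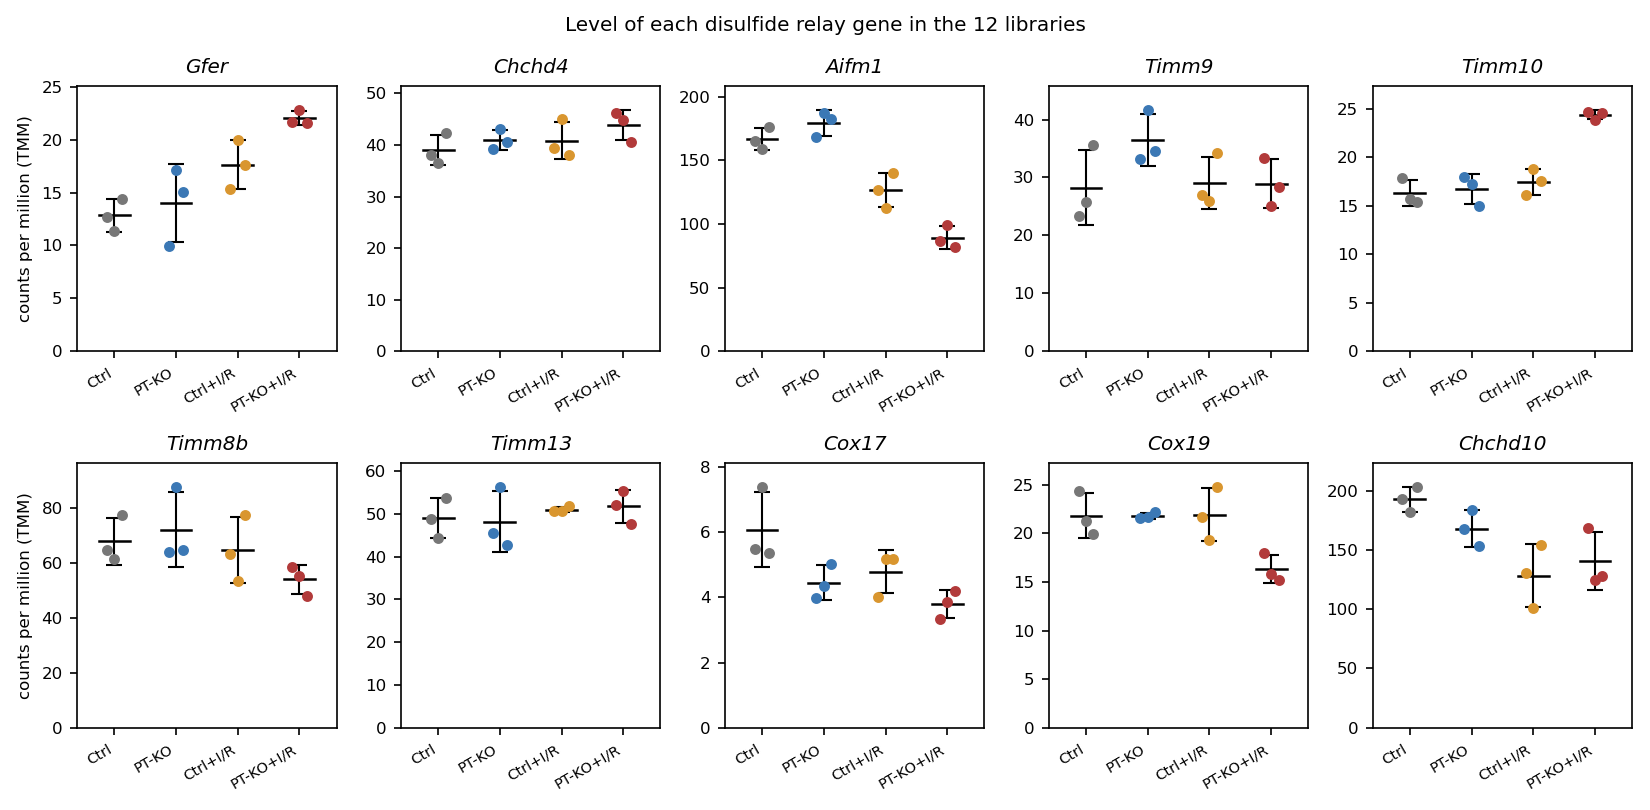
Level of each of the 10 relay genes, in CPM after TMM scaling on the y axis, in Ctrl, PT-KO, Ctrl+I/R and PT-KO+I/R. Each point is a library, the bar is the mean and the whiskers are 1 SD (n = 3); Gfer and Timm10 were highest in PT-KO+I/R (means 22.0 and 24.4 CPM), and Aifm1 was lowest there (89.3 CPM).

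The small TIM proteins work as rings of paired subunits, TIMM9 with TIMM10 and TIMM8 with TIMM13, which chaperone hydrophobic precursors. Timm10 was read at 17.8, 15.7 and 15.4 CPM in controls, 17.98, 17.2 and 15.03 CPM in knockouts, 16.2, 18.9 and 17.5 CPM in injured controls, and 24.7, 23.9 and 24.6 CPM in injured knockouts. The injured knockout libraries lay close together and above the other 9 libraries, which overlapped. Timm10 rose after I/R in knockout kidneys by 0.54 ± 0.11 (log2, adjusted p = 0.00184), a call that held in all 14 alternatives, and was higher in injured knockouts than in injured controls by 0.47 ± 0.11 (adjusted p = 0.00956). The latter was 0.27 (adjusted p = 0.106, beside 0.00278 to 0.235 over the 14 alternatives) with total counts in place of TMM. In control kidneys its difference after I/R was 0.11 ± 0.12 (adjusted p = 0.533), and 0.20 (adjusted p = 0.563) against control library 3 alone.

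Timm9, which encodes the partner of TIMM10, was read at 23.3, 25.8 and 35.5 CPM in controls, 33.2, 41.6 and 34.6 CPM in knockouts, 27.0, 25.95 and 34.2 CPM in injured controls, and 33.4, 25.02 and 28.4 CPM in injured knockouts. The groups overlapped in every comparison. Timm9 fell after I/R in knockout kidneys, with a log2 difference of -0.35 ± 0.13 (adjusted p = 0.0374). The call held in 5 of 14 alternatives and was lost without knockout library 2 (-0.24, adjusted p = 0.154, beside 0.0101 to 0.214 over the 14), the library with the highest level. Without I/R, knockouts stood 0.37 ± 0.16 above controls (adjusted p = 0.306). That difference was called without control library 3 (0.57, adjusted p = 0.0186), which leaves the control libraries with high Xist, and was 0.04 (adjusted p = 0.984) against control library 3 alone.

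Timm8b and Timm13 encode subunits of the other ring. Timm8a1, another TIMM8 gene, is in the list of other relay substrates below. Its log2 difference after I/R in knockout kidneys was -0.12 (edgeR, adjusted p = 0.504). Timm8b was read at 64.5, 61.4 and 77.4 CPM in controls, 63.9, 87.7 and 64.7 CPM in knockouts, 63.3, 53.4 and 77.4 CPM in injured controls, and 58.6, 55.2 and 48.0 CPM in injured knockouts. Every injured knockout library lay below every knockout library, and Timm8b fell by 0.43 ± 0.13 (log2, adjusted p = 0.0154). The call was lost without knockout library 2 (-0.26, adjusted p = 0.0550) and without injured knockout library 4 (-0.35, adjusted p = 0.0678). Against injured controls the difference was -0.27 ± 0.15 (adjusted p = 0.180), and it was called with total counts (-0.47, adjusted p = 0.0328), with the GC and length offset (-0.42, adjusted p = 0.0479) and without injured control library 2 (-0.40, adjusted p = 0.0346). On the opposite strand, exons of Nkapd1 (276 to 602 counts a library) cover 81 of the 518 exon bases of Timm8b, and whether the counting used strand is not given in the sources used here. Timm13 was between 42.8 and 56.4 CPM in the 12 libraries, and its differences were between -0.03 and 0.10 in the 4 comparisons, none called (adjusted p 0.472 to 0.928). Against control library 3 alone, Timm13 had -0.06 in injured controls and -0.16 in knockouts (adjusted p = 0.845 and 0.942).

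The balance within each pair was compared as the ratio of both CPM values in a library, which does not depend on how libraries were scaled. Because transcript lengths differ, only changes of a ratio between libraries are meaningful. Timm10 over Timm9 was 0.765, 0.609 and 0.434 in controls, 0.542, 0.414 and 0.434 in knockouts, 0.598, 0.726 and 0.512 in injured controls, and 0.741, 0.954 and 0.866 in injured knockouts. The injured knockout ratios lay above all knockout and all injured control ratios (exact permutation p = 0.1 for each, n = 3 a group). Timm13 over Timm8b was 0.672 ± 0.0361 in knockouts and 0.963 ± 0.0627 in injured knockouts (SD, n = 3), again without overlap (exact permutation p = 0.1), while controls (0.725 ± 0.0307) and injured controls (0.806 ± 0.140) overlapped. Aifm1 over Chchd4 was 4.28 ± 0.0971 in controls and 4.37 ± 0.112 in knockouts, and lay below these without overlap in injured controls (3.13 ± 0.583) and in injured knockouts (2.04 ± 0.176; exact permutation p = 0.1 in each I/R comparison). Gfer over Chchd4 was 0.328 ± 0.0153 in controls, 0.340 ± 0.0760 in knockouts, 0.431 ± 0.0383 in injured controls and 0.503 ± 0.0320 in injured knockouts, and the I/R groups lay above their groups without I/R with no overlap.

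**Figure D3:**
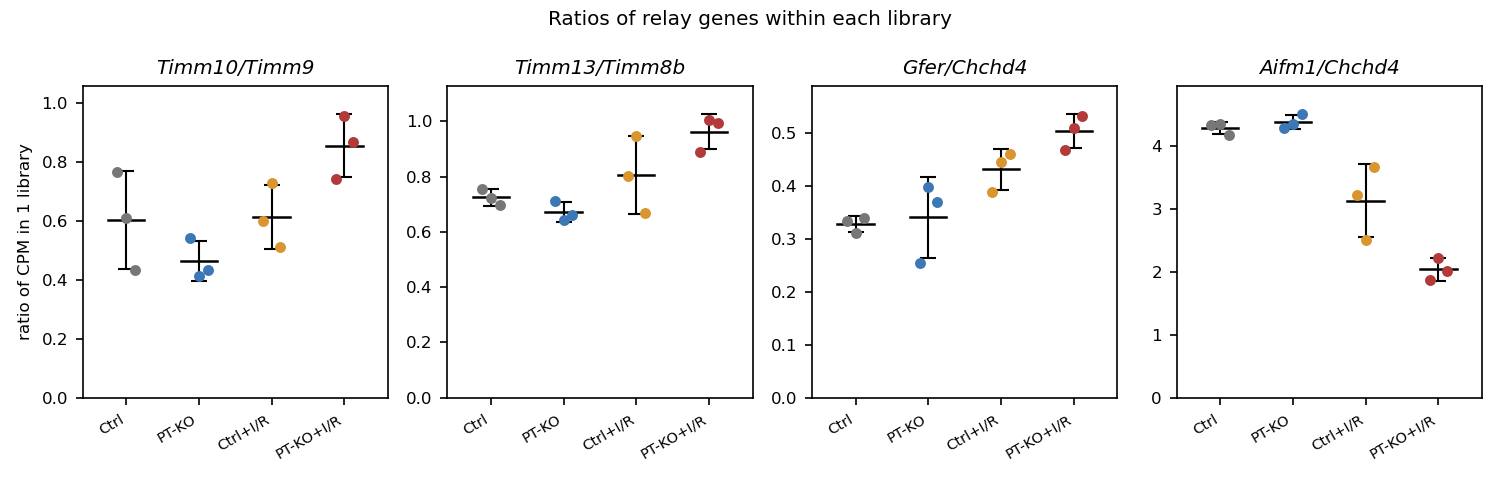
Ratio of 2 relay genes' CPM within each library on the y axis, by group; points are libraries, bars means and whiskers 1 SD (n = 3). The Aifm1/Chchd4 ratio goes from 4.37 in PT-KO to 2.04 in PT-KO+I/R, and the Timm10/Timm9 ratio from 0.463 to 0.854.

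Cox17 and Cox19 encode twin-cysteine proteins of copper delivery to cytochrome c oxidase, and Chchd10 a twin-cysteine protein found with the cristae-organizing complex. Cox17 had the fewest reads (39 to 121 counts a library), at 5.48, 7.40 and 5.38 CPM in controls, 3.98, 4.36 and 5.03 CPM in knockouts, 4.02, 5.17 and 5.19 CPM in injured controls, and 3.34, 3.87 and 4.19 CPM in injured knockouts. Controls lay above every other group without overlap, but no difference was called (-0.45 ± 0.20 for knockouts against controls, adjusted p = 0.305). Against control library 3 alone that value was -0.27 (adjusted p = 0.942). The annotated readthrough transcript Gm21987 shares 257 of the 444 bases of a coding Cox17 transcript on the same strand and was listed at 0 in every library. In addition, bases 1037 to 1136 of a longer Cox17 transcript, of 3690 bases, match transcripts of many other genes at 95% identity or more. Slc3a2, for example, matches at 98% on the same strand and had a mean of 4336 counts a library. How reads that match Cox17 and another gene were counted is not given in the sources used here.

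Cox19 was read at 24.3, 21.2 and 19.9 CPM in controls, 21.5, 21.7 and 22.1 CPM in knockouts, 21.7, 19.3 and 24.8 CPM in injured controls, and 17.97, 15.8 and 15.2 CPM in injured knockouts. The injured knockout libraries lay below the other 9. The log2 difference of Cox19 was -0.43 ± 0.11 (adjusted p = 0.00691) against knockouts and -0.43 ± 0.14 (adjusted p = 0.0363) against injured controls. The latter call no longer held in 4 of the 6 fits with a library removed (injured knockout 3 or 4, injured control 1 or 4, at adjusted p 0.0820 to 0.120) and with the GC and length offset (-0.27, adjusted p = 0.125).

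Chchd10 was read at 193, 182 and 203 CPM in controls, 168, 184 and 153 CPM in knockouts, 130, 101 and 154 CPM in injured controls, and 168, 125 and 128 CPM in injured knockouts. Every injured control library lay below every control library, and Chchd10 fell by 0.58 ± 0.17 (log2, adjusted p = 0.0488). The call was lost without any 1 of control libraries 1, 2 and 3 or injured control libraries 1 and 2 (adjusted p 0.0786 to 0.134), with total counts (-0.47, adjusted p = 0.0667) and with a sex term (-0.66, adjusted p = 0.0639), and it held in 7 of 15 alternatives. The value against control library 3 alone was -0.64 (adjusted p = 0.296). Injured control library 2, which had the highest Havcr1 of its group, had the lowest Chchd10, and the value without that library was -0.42. Among the injured knockouts, library 3 had the highest Havcr1, and its Chchd10 (125 CPM) was close to that of library 4 (128 CPM). The part of injury in the level of Chchd10 was not tested. In knockout kidneys the difference after I/R was -0.27 ± 0.12 (adjusted p = 0.0804), which was called with the GC and length offset (-0.36, adjusted p = 0.0123) and without injured knockout library 2 (-0.41, adjusted p = 0.00477, beside 0.00477 to 0.267 over the 14 alternatives). Mmp11, on the opposite strand (31 to 109 counts), shares 155 of the 1575 exon bases of Chchd10.

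Read by comparison, I/R in control kidneys was accompanied by 1 called relay gene of 10 (Chchd10, lower), where 19.4% of the 15567 genes tested were called, 11.4% higher and 7.97% lower. Libraries of both groups stayed apart for 4 of the 10 (Gfer, Aifm1, Cox17 and Chchd10), and for 43.7% of all tested genes. The median log2 fold change of the 10 was 0.03 and that of all tested genes -0.01. With total counts in place of TMM that median over all genes was 0.11, and the calls shifted from 1778 higher and 1241 lower to 2346 and 766.

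In knockout kidneys, 6 of the 10 were called after I/R, where 65.5% of 15155 genes were, so the share among the relay genes was close to the background. Gfer and Timm10 rose, where 32.9% of all genes were called higher, and Aifm1, Cox19, Timm8b and Timm9 fell, where 32.7% were called lower. Full separation of the libraries was seen for 5 of the 10 (Gfer, Timm10, Aifm1, Cox19 and Timm8b) and for 70.8% of all tested genes. The median of the 10 was -0.25 beside 0.01 for all genes, and -0.14 beside 0.09 with the GC and length offset.

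For the knockout without I/R, edgeR called 0 of the 10 and 0 of 15291 genes (0%), while 0 of the 10 and 2573 of all genes had an unadjusted p under 0.05. DESeq2 called 0 of the 10 and 458 genes. Only Cox17 did not overlap between the groups, where 21.0% of all tested genes did not. The largest differences were those of Cox17 (-0.45) and Timm9 (0.37), and the median of the 10 was 0.05 beside -0.01 for all genes.

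After I/R, 3 of the 10 were called between injured knockouts and injured controls, where 46.9% of 15281 genes were called, 22.5% higher and 24.4% lower. Timm10 was higher, and Aifm1 and Cox19 were lower. Here the libraries separated for 4 of the 10 (these and Gfer) and for 58.7% of all tested genes, and the median of the 10 was -0.00 beside -0.00 for all genes. Total counts moved the median of the 10 to -0.20, that over all genes to -0.21 and the calls from 3444 higher and 3725 lower to 1978 and 5080, and the GC and length offset moved the medians to 0.06 and 0.11 and the calls to 4589 and 3079. The 0.27 of Timm10 with total counts thus stood beside a median gene of -0.21.

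**Figure D4:**
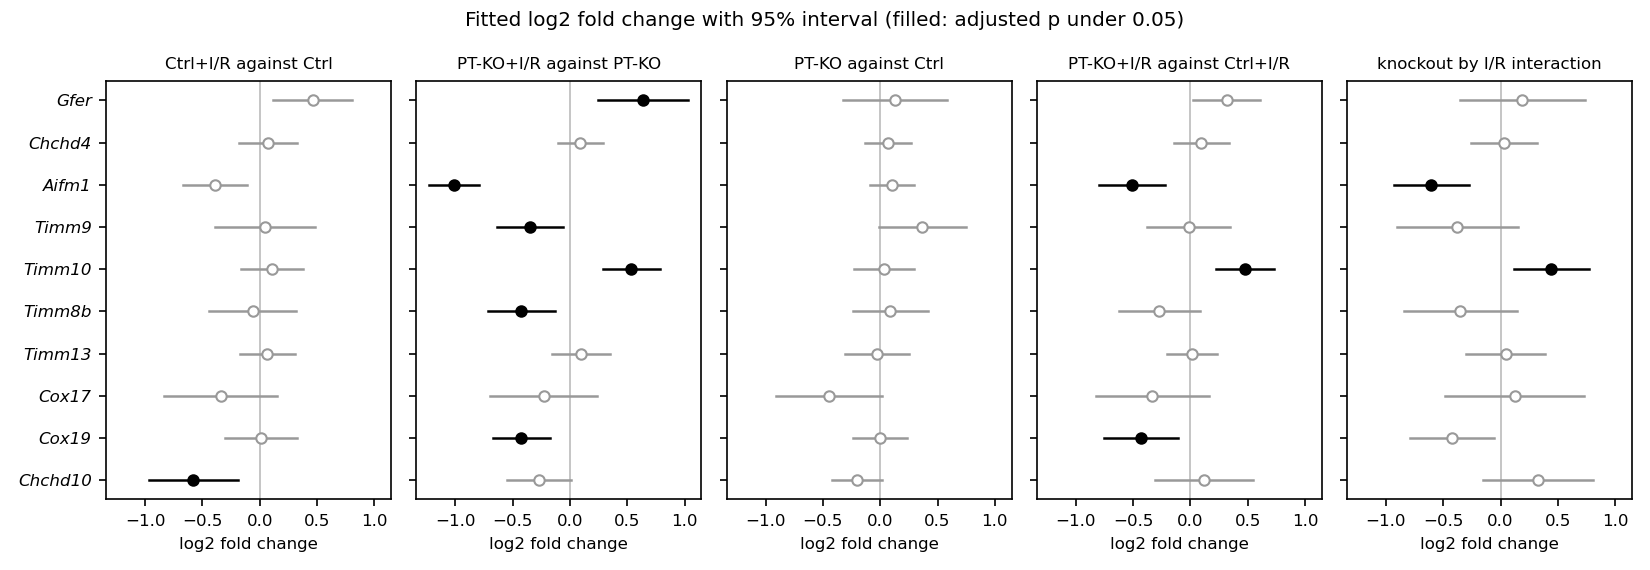
Fitted log2 fold change of each relay gene (x axis) with its 95% interval in the 4 comparisons and the interaction; filled points passed an adjusted p under 0.05 in edgeR. Aifm1 is furthest below 0 (-1.01) and Gfer furthest above (0.64) for I/R in the knockout, and no point is filled in PT-KO against Ctrl.

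Whether the response to I/R differed between genotypes was tested as an interaction over all 12 libraries, in which 30.6% of 16168 genes were called, 14.3% positive and 16.4% negative. These were 2305 and 2648 genes, against 1591 and 2997 with total counts and 3384 and 2209 with the GC and length offset. Of the 10, 2 were called. For Aifm1 the log2 difference after I/R was lower in knockout than in control kidneys, with an interaction of -0.61 ± 0.15 (adjusted p = 0.0107). The call was lost with a sex term (-0.52, adjusted p = 0.0659), without control libraries 1 and 2 (-0.53, adjusted p = 0.103) and with the GC and length offset (-0.41, adjusted p = 0.0582). Timm10 had a value of 0.44 ± 0.15 (adjusted p = 0.0432), and it was called in 4 of 20 alternatives. For Gfer the interaction was 0.19 ± 0.25 (-0.35 to 0.73, adjusted p = 0.593), so a different response of Gfer in both genotypes was not detectable with these libraries. For Cox19 it was -0.42 ± 0.17 (adjusted p = 0.0742), which passed the threshold without injured control library 2 (-0.52, adjusted p = 0.0307).

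Per kilobase of the union of exons, the relay genes kept Timm8b at the top and Chchd10 next in the 4 groups. In controls, Timm8b (131 ± 16.3 CPM per kb, SD, n = 3) and Chchd10 (122 ± 6.72) were highest and did not differ beyond their spread, followed by Aifm1 (41.6 ± 2.22) and Timm13 (35.8 ± 3.43), and by Timm10 (20.03 ± 1.63). Chchd4 (7.52 ± 0.573), Timm9 (6.59 ± 1.51), Cox19 (5.82 ± 0.607) and Gfer (5.75 ± 0.680) followed, and neighbours among these 4 did not differ beyond their spread. In injured knockouts, Aifm1 stood at 22.3 ± 2.28 CPM per kb, below Timm13 (37.8 ± 2.82) and Timm10 (29.9 ± 0.584). Cox17 is left out of this order because its annotated exons cover the whole span of the gene.

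Another 4 lists were read from the same fits, with 69 of their 70 genes tested. Of 25 other relay substrates, mainly twin-cysteine proteins, 0 were called after I/R in control kidneys (median -0.17; edgeR, adjusted p), 14 in knockout kidneys (1 higher, 13 lower, median -0.35), 0 for the knockout without I/R (median -0.00), and 7, all lower, in injured knockouts against injured controls (median -0.13). Of 19 genes of the import translocases tested, 2 (1 higher, 1 lower), 9 (3 higher, 6 lower), 0 and 7 (4 higher, 3 lower) were called in the same order. Of 9 genes of copper delivery and cytochrome c, 1 (lower), 6 (1 higher, 5 lower), 0 and 1 (lower) were called. Of 16 respiratory chain and matrix genes kept as a reference, 3 (all lower, median -0.51), 13 (all lower, median -0.54), 0 and 2 (both lower, median -0.08) were called. Without I/R, where edgeR called 0 genes of each list for the knockout, 0, 1, 1 and 2 genes of the lists in the order given had an unadjusted p under 0.05, where 16.8% of all tested genes did, and DESeq2 called 0 of each and 458 of all 15291 genes. After I/R in control kidneys, 7 of the 25 relay substrates had an unadjusted p under 0.05, where 37.9% of all tested genes did. DESeq2 called 2 of these 25 and 11 of the 16 reference genes there, where it called 26.0% of all genes. Of the 69 genes together, 6 were called after I/R in control kidneys (1 higher and 5 lower), where 19.4% of all tested genes were called, 11.4% higher and 7.97% lower. In knockout kidneys 42 were called (5 higher and 37 lower), where 65.5% of all genes were, 32.9% higher and 32.7% lower. Between the injured groups 17 were called (4 higher and 13 lower), where 46.9% were, 22.5% higher and 24.4% lower. In the interaction 13 were called (3 positive and 10 negative), where 30.6% were, 14.3% positive and 16.4% negative.

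Within these lists the substrates of the relay that stood out after I/R in knockout kidneys were Coa4 and Cmc2, assembly factors of cytochrome c oxidase, and Ndufb10, a twin-cysteine subunit of complex I. Coa4 was at 5.13 ± 0.436 CPM in injured controls and 1.84 ± 0.414 CPM in injured knockouts (SD, n = 3), and was lower with a log2 difference of -1.46 ± 0.24 (adjusted p = 0.00248), as it was against knockouts (-1.48 ± 0.24, adjusted p = 4.31e-04). Cmc2 was at 8.75 ± 3.64 and 3.97 ± 0.419 CPM in the same groups, a log2 difference of -1.15 ± 0.31 (adjusted p = 0.0174), and this call was lost without injured knockout library 3 or 4. Against knockouts its log2 difference was -1.24 ± 0.17. Chchd6, of the cristae-organizing complex, was lower than in injured controls with a log2 difference of -0.92 ± 0.17 (adjusted p = 0.00376). Ndufb10 was lower than in knockouts with a log2 difference of -1.11 ± 0.08, and Chchd1, of the mitochondrial ribosome, was higher by 0.28 ± 0.10 (adjusted p = 0.0365), a call held in 6 of 14 alternatives (adjusted p 0.0146 to 0.158).

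Among the translocases, Grpel1, the nucleotide exchange factor of the import motor, was at 99.2 ± 8.96 CPM in knockouts, 84.5 ± 14.9 in injured controls and 146 ± 9.02 in injured knockouts, and rose by 0.55 ± 0.09 after I/R in knockout kidneys. It was higher than in injured controls by 0.78 ± 0.14 (adjusted p = 0.00347). Tomm40, the channel of the outer membrane, rose after I/R in both genotypes (0.38 ± 0.10 in control, adjusted p = 0.0404, and 0.44 ± 0.09 in knockout kidneys, adjusted p = 0.00185), the former in 4 of 15 alternatives. Timm29, of the carrier translocase, was higher in injured knockouts than in knockouts (0.27 ± 0.10, called in 10 of 14 alternatives) and than in injured controls (0.45 ± 0.10), as were the receptors Tomm20 (0.54 ± 0.13) and Tomm70a (0.45 ± 0.11) than in injured controls. With total counts, the calls of Timm29, Tomm20 and Tomm70a against injured controls were lost. Timm21 fell by 0.49 ± 0.11 (adjusted p = 0.0248) after I/R in control kidneys, and Agk, which works in the carrier translocase, was lower than in injured controls with a log2 difference of -0.70 ± 0.15 (adjusted p = 0.00726).

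Ccs, the copper chaperone of superoxide dismutase, was at 86.1 ± 2.59 CPM in controls, 90.5 ± 9.09 in knockouts, 53.6 ± 13.99 in injured controls and 34.1 ± 3.96 in injured knockouts. After I/R it fell by 0.67 ± 0.20 (log2, adjusted p = 0.0494) in control kidneys and fell by 1.42 ± 0.11 (adjusted p = 2.22e-06) in knockout kidneys. Sco2, a copper chaperone of cytochrome c oxidase at 0.316 to 1.48 CPM in all libraries, rose by 1.17 ± 0.40 (adjusted p = 0.0247) in knockout kidneys, a call held in 6 of 13 alternatives, and it overlaps Tymp and Ncaph2. In the reference list, Sdha, Sdhb and Ndufs1, subunits of complexes II and I, were lower after I/R in control kidneys, with log2 differences of -0.65 ± 0.18, -0.66 ± 0.19 and -0.65 ± 0.18, and these calls and those of Ccs and Timm21 there held in 7 or 8 of 15 alternatives. Against control library 3 alone, Ccs (-0.68), Sdha (-0.63), Sdhb (-0.69), Ndufs1 (-0.71), Timm21 (-0.49) and Tomm40 (0.39) had similar log2 differences and were not called (adjusted p 0.263 to 0.321). Ndufs1 fell by 1.39 ± 0.09 in knockout kidneys and was lower in injured knockouts than in injured controls with a log2 difference of -0.67 ± 0.17 (adjusted p = 0.0134), a call held in 11 of 14 alternatives and lost without injured knockout library 3 or 4 (adjusted p = 0.0566 and 0.0549).

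**Figure D5:**
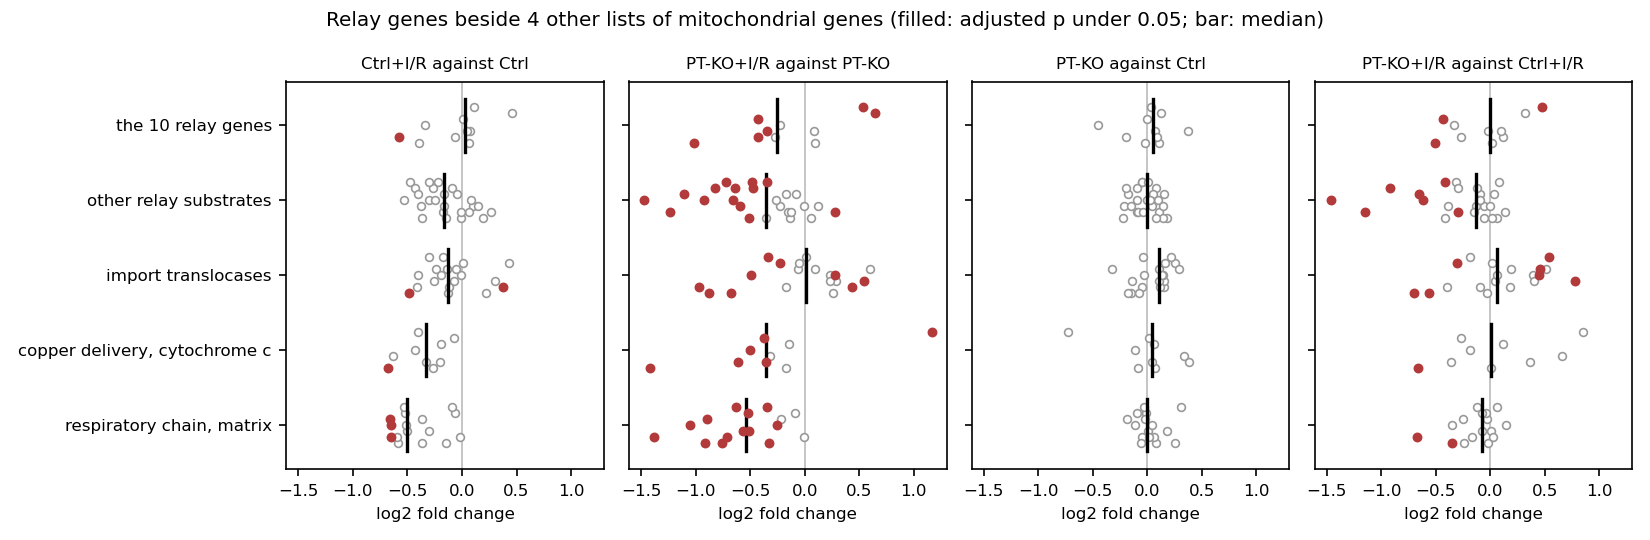
Log2 fold change (x axis) of each gene in the 10 relay genes and the 4 other lists, by comparison; red points passed an adjusted p under 0.05 in edgeR and black bars are medians. In PT-KO+I/R against PT-KO the medians are -0.25 for the relay genes, -0.35 for other relay substrates and -0.54 for the respiratory chain and matrix genes.

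Markers of other cell types moved with the same groups, and their part in these results was not tested. Beside the fall of 10 of 10 proximal tubule markers after I/R in knockout kidneys (median -2.52) and of 4 of 10 in control kidneys (median -0.94), 4 of 4 thick ascending limb markers were lower in knockout kidneys (median -3.12). In control kidneys their median was -1.28, and edgeR called 0 of 4 (2 at an unadjusted p under 0.05), where DESeq2 called 1. Their summed level was 6534 to 8862 CPM in controls, 6732 to 7717 in knockouts, 1386 to 3982 in injured controls and 1951 to 2426 in injured knockouts, so it was lower after I/R in both genotypes without overlap. The neutrophil markers summed to 0.306 to 1.61 CPM in the groups without I/R, 5.95 to 26.3 in injured controls and 46.8 to 71.1 in injured knockouts. Macrophage markers summed to 75.1 to 120 CPM in injured controls and 49.0 to 56.6 in injured knockouts, where 4 of 5 were lower and 1 was higher. Distal tubule markers were lower after I/R for 4 of 4 in control kidneys and 3 of 4 in knockout kidneys, where 1 was higher, and collecting duct markers for 3 of 6 and 5 of 6. Fibroblast markers summed to 111 to 156 CPM in controls, 73.9 to 125 in knockouts, 399.7 to 543 in injured controls and 108 to 176 in injured knockouts. Endothelium markers summed to 239 to 272 CPM in the other 3 groups and 337 to 341 in injured knockouts. Podocyte markers were called lower after I/R for 3 of 4 in control kidneys (median -0.76) and 1 of 4 in knockout kidneys (median -0.09). Erythroid markers summed to 74.3 to 193 CPM in injured controls and 38.4 to 44.5 in injured knockouts. Lymphocyte markers summed to 1.33 to 5.94 and 0.193 to 0.428 CPM in the same groups. Ggt1, whose promoter drives the Cre, was at 620, 537 and 919 CPM in controls, 962, 1295 and 987 CPM in knockouts, 617, 534 and 668 CPM in injured controls, and 528, 531 and 510 CPM in injured knockouts. Its difference between knockouts and controls was not called (0.64 ± 0.21, adjusted p = 0.228), and was 0.23 (adjusted p = 0.920) against control library 3 alone.

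The 5 of 16167 tested genes whose levels were most like that of Gfer over the 12 libraries, by Pearson's correlation of log2 CPM, were Gskip (0.967), Eef1e1 (0.961), Psmd10 (0.955), Nacc1 (0.952) and Arl6ip4 (0.944). Gskip, for example, had mean levels of 12.3, 13.5, 16.4 and 20.6 CPM in controls, knockouts, injured controls and injured knockouts. Ranked by Spearman's rho instead, 2 of the 5 (Gskip and Nacc1) were again among the first 5. Of the other relay genes, Chchd4 (0.719) and Timm10 (0.708) were nearest to Gfer, and Aifm1 (-0.761) was furthest. These are descriptions over libraries that share 4 groups and carry no p-value.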

How the data were processed

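RNA of mouse kidney was sequenced by the authors on an Illumina platform, and the deposited table holds raw read counts per Ensembl gene for 12 libraries, neither normalized nor filtered. The submitters' processing notes name HISAT2 2.0.4 and mm10. The counting program, its strand setting and its treatment of reads with several matches are not given in the sources used here. The control column numbered 3 was taken as a control library from its name, since the titles of that group are numbered 1, 2 and 4. Symbols, exons and lengths came from GENCODE M21 (GRCm38), which named 55227 of 55487 identifiers, and the sequence upstream of Gfer came from RefSeq (GRCm38).

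Genes were filtered with filterByExpr, scaled with TMM and tested with edgeR 4.0.16 (quasi-likelihood F test, R 4.3.3) separately for every pair of groups (6 libraries), and the interaction on all 12. Calls needed an adjusted p (Benjamini-Hochberg, all tested genes) under 0.05. CPM values use TMM scaling over all 12 libraries. Similar transcripts were sought with BLAST 2.17.0. Alternatives were DESeq2 1.42.0, total counts, no filter, at least 10 counts in every library, a fit to all 12 libraries, a replicate block, a sex term, a GC and length offset, and each library left out. Leaving out control libraries 1 and 2 was added after the data had been seen. The fits were tested on simulated data. Scatter between 2 libraries of a group, averaged over genes with at least 20 counts in the pair, was 8.2 to 66.3 times the counting error (variance ratio, range over pairs). This mean is not a value for any single gene, and counting error weighs more at low counts.

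The relay genes and the other lists were chosen with earlier results of these data known. Named besides the 10 were Noxo1, in each comparison the 5 highest and 5 lowest called genes of the other lists, and the 5 genes most like Gfer. Ggt1, Havcr1, Xist and Timm8a1 were also named, as were genes that overlap a named gene or match it in sequence.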

Additional observations from a re-analysis of the deposited data

Results flagged for a closer look

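The response to I/R differed between the genotypes, by the interaction term of edgeR over all 12 libraries, for 2 of the relay genes, 10 of the genes named above from the other lists, and Ggt1, where 30.6% of all tested genes were called. The 10 were picked for being called, so their number is no result. The relay genes were Aifm1, with an interaction of -0.61 (log2, adjusted p = 0.0107), and Timm10, with 0.44 (adjusted p = 0.0432). Among the relay substrates, Coa4 had an interaction of -1.55 (adjusted p = 0.00404), Cmc2 of -1.04 (adjusted p = 0.0353), Chchd6 of -0.71 (adjusted p = 0.0255) and Ndufb10 of -0.69 (adjusted p = 0.0109). Among the translocases, Grpel1 had 0.63 (adjusted p = 0.0201), Timm29 had 0.49 (adjusted p = 0.0227) and Agk had -0.54 (adjusted p = 0.0309). Sco2 had 1.59 (adjusted p = 0.0322), at 0.316 to 1.48 CPM, and Ccs had -0.73 (adjusted p = 0.0337). In the respiratory chain, Ndufs1 had -0.72 (adjusted p = 0.0160). Ggt1 had -0.86 (adjusted p = 0.0289). Without control libraries 1 and 2, only Chchd6 (-0.95, adjusted p = 0.0395), Grpel1 (0.78, adjusted p = 0.0438) and Timm29 (0.60, adjusted p = 0.0489) of these 13 genes were called, and the other 10 had adjusted p from 0.0524 (Coa4) to 0.238 (Ggt1, -0.45), with no change of sign. Of 20 alternatives, Coa4 was called in 19, Aifm1, Grpel1, Timm29 and Ndufb10 in 17, Ndufs1 in 16, Chchd6 in 15, Ggt1 in 11, Ccs in 9, Cmc2 and Agk in 8 and Timm10 in 4, and Sco2 in 7 of 19.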

How the results depend on the processing

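Of the relay genes, 1, 6, 0, 3 and 2 were called in injured controls against controls, injured knockouts against knockouts, knockouts against controls, injured knockouts against injured controls and the interaction. In injured controls against controls the count was 2 with DESeq2, the fit to all 12 libraries or the GC and length offset, and 0 with a sex term or without control libraries 1 and 2. In the interaction it was 1 with total counts, without a filter, or with at least 10 counts in every library, and 0 with the sex term, the offset or without control libraries 1 and 2. With 1 library left out it was 0 to 2, 4 to 7, 0 to 1, 1 to 5 and 1 to 3 in the same order. The fit without control libraries 1 and 2 leaves 1 control library, which is assumed to vary like the others. Causes were not tested.

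Deviations of same-numbered libraries from their group means had a median correlation of -0.031 over 12 pairs from different groups (range -0.238 to 0.264, 1 pair over 0.1). Control library 3, whose number matches no sample title of its group, was left out. With deviations taken from means of 3 libraries, these values cannot show whether such libraries share more than a number. In a replicate block, a library with no same-numbered partner among the groups compared was fitted exactly and carried no weight in the test. Control library 3 formed a block of its own, so blocked fits with controls rest on the control libraries with high Xist. Calls gained or lost with the block cannot be told apart from this loss of libraries. The block gave 3 called relay genes in injured knockouts against knockouts, without the calls of Gfer (0.43, adjusted p = 0.0519), Cox19 (-0.41, adjusted p = 0.0612) and Timm9 (-0.30, adjusted p = 0.0688), 1 in knockouts against controls (Timm9, 0.59), 0 in injured knockouts against injured controls and 1 in the interaction. It also ended the calls between the injured groups of the 9 genes named from the other lists (Coa4, Cmc2, Chchd6, Grpel1, Timm29, Tomm20, Tomm70a, Agk and Ndufs1, adjusted p 0.0618 to 0.208). The block turned the sign of uncalled differences near 0: Cox19 in injured controls against controls (-0.14), Timm13 in knockouts against controls (0.12), Timm9 in injured knockouts against injured controls (0.047), Timm13 in injured knockouts against injured controls (-0.036), Chchd4 in the interaction (-0.084) and Timm13 in the interaction (-0.11).

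No called value changed sign in the alternatives run; all other sign changes were of uncalled values. In injured controls against controls they were Chchd4 (-0.051), Timm9 (-0.29) and Timm13 (-0.077) with the sex term, Chchd4 (-0.032), Timm9 (-0.27) and Timm13 (-0.057) without control libraries 1 and 2, Timm8b (0.060) with total counts, and Cox19 (-0.032), Timm9 (-0.00042) and Timm13 (-0.0031) with the offset. In injured knockouts against knockouts, Timm13 was -0.013 with the offset. In knockouts against controls they were Gfer (-0.035), Chchd4 (-0.046), Cox19 (0.13) and Timm8b (-0.10) with the sex term, Gfer (-0.036), Chchd4 (-0.047), Cox19 (0.13) and Timm8b (-0.10) without control libraries 1 and 2, Chchd4 (-0.052), Aifm1 (-0.020), Timm8b (-0.035) and Timm10 (-0.091) with total counts, Cox19 (0.017), Timm10 (-0.0045) and Timm13 (0.00081) with the offset, and Cox19 (0.0063) with DESeq2. In injured knockouts against injured controls they were Chchd4 (-0.11), Timm13 (-0.19) and Chchd10 (-0.079) with total counts, Timm9 (0.20) and Timm13 (-0.0074) with the offset, and Timm13 (-0.012) with at least 10 counts. In the interaction they were Cox17 (-0.055) with the sex term, Cox17 (-0.061) without control libraries 1 and 2, and Chchd4 (-0.058) and Timm13 (-0.039) with total counts.

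With 1 library left out, values that crossed 0 ran as follows. In injured controls against controls, Cox19 ran from -0.085 to 0.11, Timm8b from -0.21 to 0.074, Timm9 from -0.088 to 0.26 and Noxo1 from -0.48 to 0.031. In knockouts against controls, Gfer ran from -0.034 to 0.33, Cox19 from -0.067 to 0.080, Timm8b from -0.072 to 0.19, Timm10 from -0.015 to 0.11 and Timm13 from -0.15 to 0.052. In injured knockouts against injured controls, Timm9 ran from -0.11 to 0.11, Timm13 from -0.027 to 0.077 and Chchd10 from -0.038 to 0.27. In the interaction, Gfer ran from -0.0036 to 0.36, Chchd4 from -0.033 to 0.092, Cox17 from -0.040 to 0.22 and Timm13 from -0.035 to 0.17.

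Over all genes, 3019 calls in injured controls against controls became 4938 with all 12 libraries, 379 without control library 1, 413 without control library 2, 833 and 1635 without injured control libraries 1 and 2, and 0 (2962 at an unadjusted p under 0.05) without control libraries 1 and 2. The 0 calls of knockouts against controls became 458 with DESeq2, 388 without a filter, 1378 with the block, 1930 without control library 3, and 8 without control libraries 1 and 2. The 7169 calls of injured knockouts against injured controls became 1683 with the block, and the 4953 of the interaction 3215 with the block, 3233 with the sex term and 2539 without control libraries 1 and 2. Among the relay genes Cox17 had the fewest counts, 39 to 121 a library.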
